A study of Caenorhabditis briggsae with 13 samples.

Results

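Embryos of the nematode Caenorhabditis briggsae at the 190-cell stage were compared with embryos at the 55-cell stage, 80 min earlier. The comparison used 6 of the 13 arrays of a developmental series, chosen by the stage in the sample title: replicates A, B and C of the 55-cell stage and replicates A, B and C of the 190-cell stage. All samples were of strain AF16, the reference strain of the species, with no treatment named. Every sample pooled 50 embryos, staged by DAPI staining of nuclei and by light microscopy, at 80 min (55-cell) and 160 min (190-cell) after the 4-cell stage. The other stages, 4-cell (2 arrays), 28-cell (3 arrays) and 95-cell (2 arrays), entered to choose the probes kept, to estimate the spread and to place the changes in time.

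In the related C. elegans, whose early cell lineage is nearly invariant and much like that of C. briggsae, these stages lie within gastrulation. The intestinal precursors move into the interior of the embryo first, and precursors of mesoderm, germ line and pharynx follow, while dividing cells at the surface become epidermis and neurons. Early embryos of this genus run first on messenger RNA supplied by the mother, which is then degraded while the embryonic genome is switched on. Many early embryonic regulators are transcribed only for a short time and give way to the genes of differentiating tissues.

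Probes were named by WormBase gene number and a letter, A to E, with A as the best-ranked probe of its gene. Neither the files nor the reference table pair these numbers with symbols (0 of 19528 gene numbers matched), so no gene family, pathway or marker of a cell type could be checked, and genes are given by number. Levels are log2 intensity minus the 75th percentile of the gene probes of the same array, so that 0 is the level of that percentile. Each array received a fixed amount of amplified, labelled RNA from whole embryos. A level is therefore relative to the other RNA on its array and is not an amount per embryo. A lower level may be relative only, or may reflect fewer cells that hold a transcript or less of it per cell. These samples cannot tell these apart.

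A stage tag that read 4-cell contradicted the title of 55-cell A and of 190-cell B. Across 24781 kept probes, the r of 2 arrays was 0.946 to 0.979 within a stage and 0.781 to 0.852 between 55-cell and 190-cell arrays. 55-cell A had r = 0.976 and 0.964 with the other 55-cell arrays, and 190-cell B had r = 0.977 and 0.946 with the other 190-cell arrays. Replicates A and B of both stages were scanned on a first date and replicate C of both on a second. The C arrays were more sensitive, with 65.2% (55-cell) and 67.9% (190-cell) of probes well above background, against 54.1% to 56.5% on the other 4. The median SD of a gene between replicates was 0.34 at 55 cells and 0.41 at 190 cells, on the log2 scale (n = 3 each).

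Transcripts changed in large numbers between these stages. Of 13443 genes tested with limma, 4938 (36.7%) were called at an adjusted p under 0.05, 2246 of them higher at 190 cells (16.7%) and 2692 lower (20%). The median gene moved by -0.13 on the log2 scale. Relative to this median, 2592 genes lay above it (19.3%) and 2370 below it (17.6%), so the balance of rises and falls rested on how arrays were scaled. The levels of the 3 and 3 arrays did not overlap for 6441 genes (47.9%), and 4848 of those were also called (36.1%). Without the 4 arrays of the series with contradictory tags, which include 55-cell A and 190-cell B, 3625 genes were called, 1556 higher and 2069 lower. Scaling on spike-in RNA, with 28-cell C left out, gave 2174 calls, and probes detected on all arrays alone gave 2470 calls among 8477 genes.

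**Figure D1:**
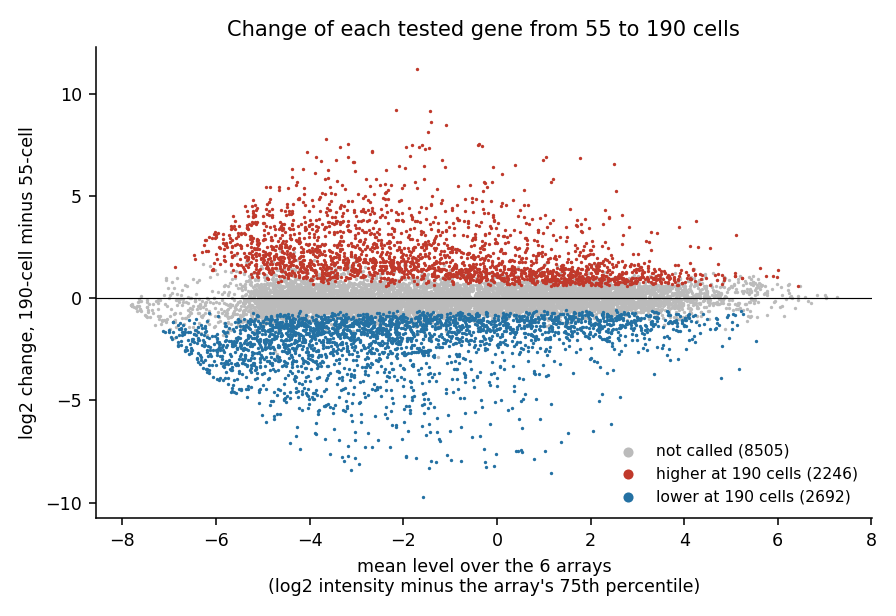
Each point is 1 of the 13443 tested genes, with its mean level over the 6 arrays (log2 intensity minus the array's 75th percentile) on the x axis and its log2 change, 190-cell minus 55-cell, on the y axis. Calls in both directions (2246 higher in red, 2692 lower in blue) occur at all but the lowest and highest levels.

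Rises and falls were of similar size. For a gene at background in its dimmer stage the lower bound of the fold was taken. The median called rise was 3.09-fold (interquartile range 2.2 to 5.86) and the median called fall 3.08-fold (2.2 to 5.41). 843 genes rose by at least 4-fold (6.27% of genes tested) and 992 fell by at least 4-fold (7.38%). At 16-fold or more there were 184 rises and 225 falls. Fitted values, in which signals at background count as levels, gave 921 and 1108 changes of at least 4-fold, 2029 in all, whereas normexp background correction, with 28-cell C left out, gave 643.

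Some called genes crossed the 75th percentile of their arrays, whatever the size of the change. Of the 2246 genes called higher, 298 lay below the array's 75th percentile on all 3 of the 55-cell arrays. They lay above it on all 3 of the 190-cell arrays. Of the 2692 called lower, 290 made the opposite move. Crossings among genes not called were not counted. Another 3830 genes stayed above that percentile on all 6 arrays. Of these, 957 were called, a smaller share than the 4938 called of all 13443 tested genes (36.7%).

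A part of the transcripts held steady within stated limits. For 2887 genes (21.5%) the 95% interval of the change lay within 2-fold in either direction. None of the 4938 called genes was among them. 391 called rises and 446 called falls were under 2-fold, with the lower bound taken for genes at background in their dimmer stage. The intervals are those of the fitted change, and for these genes too they reached past 2-fold. For 5618 genes (41.8%) the change was neither called nor limited to within 2-fold, and 1593 genes did not overlap between stages without being called. The median half-width of the interval was 0.75 on the log2 scale, set by 3 arrays per stage.

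Some transcripts appeared or disappeared at the limit of detection. 165 genes (1.23%) rose from no kept probe above background on any 55-cell array to at least 1 above background on every 190-cell array. Lower bounds on these rises had a median of 3.49-fold and reached 642-fold, and for 73 genes the bound was 4-fold or more. 153 of the 165 also had no probe above background on either 4-cell array, against 26.4% of all tested genes. 140 had none on the 4-cell or the 28-cell arrays with detection flags, against 6.10% of all tested genes. The 165 were chosen for no detection at 55 cells, which favours no detection at the earlier stages too. How far this choice set these counts was not tested. At the 95-cell stage 33 of the 165 were above background on both arrays and 29 on neither. Spots counted as well above background started at an intensity of 17.5 and 25.7 at 4 cells and of 13.8, 15.7 and 4.35 at 55 cells. Detection at 4 cells was therefore the less sensitive. Without 55-cell C, the most sensitive array of its stage, the count was 376 in place of 165.

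The opposite change, from every 55-cell array to no kept probe above background on any 190-cell array, was found for 155 genes (1.15%). For 153 of them a bound above 1 could be given, with a median fall of at least 3.67-fold and a largest fall of at least 111.7-fold. 130 of these 155 genes had no probe above background on either 4-cell array, against 26.4% of all tested genes. 17 had none on the 4-cell and 28-cell arrays alike, against 6.10% of all tested genes. Most of the 155 were thus above background on a 28-cell array and on neither 4-cell array, as were 20.3% of all tested genes. Spots well above background started at an intensity of 13.8 and 16.9 on 28-cell A and B, lower than on the 4-cell arrays. These genes were chosen at the limit of detection, and how far sensitivity set the counts was not tested. At 95 cells 68 of the 155 were above background on neither array. Without 190-cell C the count was 395 in place of 155, and with the first scan date alone 408 genes appeared and 410 disappeared.

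The transcripts that fell most had, for the most part, risen earlier. The change from 4 to 28 cells uses none of the arrays of the 190-cell with 55-cell comparison. The calls of both comparisons do share the choice of probes and the estimate of each gene's spread, to which all stages contributed. Among all 13443 tested genes, 25.12% were called higher at 28 than at 4 cells and 30.7% lower. Of the 2692 genes that fell from 55 to 190 cells, 1532 (56.9%) had been called higher at 28 than at 4 cells, and 501 (18.6%) lower. The share grew with the size of the fall: 732 of 992 genes (73.8%) with falls of at least 4-fold and 207 of 225 (92.0%) with falls of 16-fold or more. Only 6 of those 225 had been called lower. Their median log2 change from 4 to 28 cells was 4.92 (interquartile range 3.65 to 6.35). In the 8505 genes not called between 55 and 190 cells it was -0.33.

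The early rise among the falling genes remained above that of all genes under each of 22 alternatives, by 23.1 to 49.4 percentage points. Scaling on the probes that every array detected moved the median 28-cell with 4-cell change of all genes from -0.18 to 1.02. The share was then 75.1% among 2829 falling genes and 52% among all genes. With spike-in scaling, without 28-cell C, it was 70% and 20.6%. With normexp background correction, also without 28-cell C, 48.7% of the falling genes and 15.4% of all genes had been called higher early. With only probes detected on all arrays, 38.9% of falling genes had been called higher and 33.6% lower, against 15.8% and 42.7% of all genes, so under these last settings fewer than 1 in 2 falling genes had risen.

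Genes that rose from 55 to 190 cells were called early in shares closer to those of all genes. Of the 2246, 443 (19.7%) had been called higher at 28 than at 4 cells and 787 (35%) lower. Of the 184 genes with rises of 16-fold or more, 22 had been higher, 47 lower and 115 (62.5%) not called, against 44.2% not called among all tested genes. Genes at background at both early stages can hardly be called between them. Of the 843 genes with rises of at least 4-fold, 30.6% had no probe above background at 4 or 28 cells, against 6.10% of all. How far this set the share not called was not tested. With scaling on detected probes 39.6% of 2296 rising genes had been higher at 28 cells and 17.8% lower, against 52% and 15.8% of all genes.

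**Figure D2:**
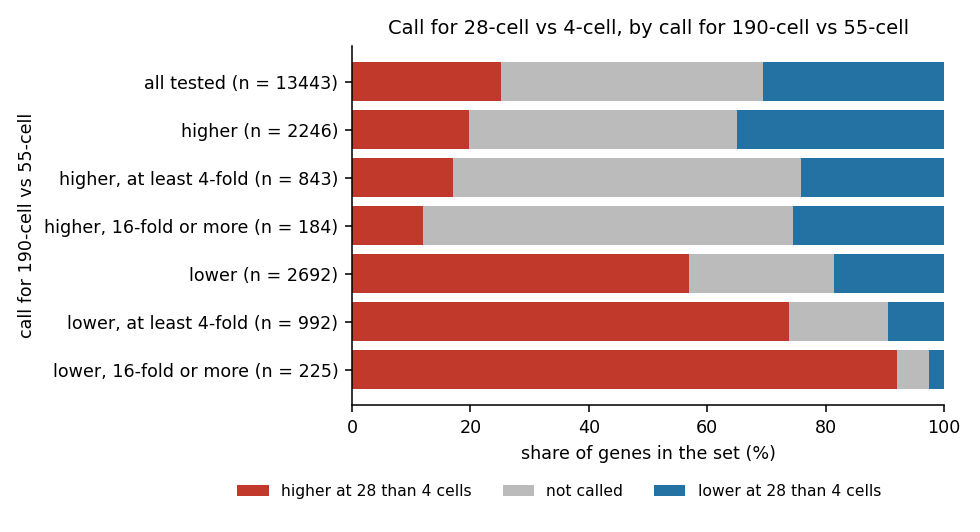
Each bar is a set of genes by its call between 55 and 190 cells, with its n, and shows the share (%) called higher (red), not called (grey) or lower (blue) between 4 and 28 cells. The red share is 25.12% for all tested genes, 56.9% for genes that fell and 92.0% for those that fell by 16-fold or more.

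Detection on the 4-cell arrays was also counted, from the scanner's flags. No kept probe was above background on either 4-cell array for 26.4% of all tested genes. The share was 38.9% of the genes called higher at 190 cells and 36.4% of those called lower. The 2 directions differed at the next stage. 452 of the 2246 rising genes (20.1%) also had no probe above background on the 28-cell arrays with flags, against 71 of the 2692 falling genes (2.64%) and 6.10% of all tested genes. Conversely 910 falling genes (33.8%) were above background on neither 4-cell array but on a 28-cell array. The same held for 422 rising genes (18.8%) and 20.3% of all tested genes. Genes above background on both 4-cell arrays, which may include messages supplied by the mother, made up 56.2% of rising and 58.2% of falling genes, against 68.5% of all.

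The course over the stages was followed in genes that were above background on all 6 arrays and changed by at least 4-fold, 527 of them rising and 633 falling. Among the 396 falling genes detected on both 4-cell arrays, the median level was -1.28 and -1.32 on those arrays. It was 1.62, 1.86 and 1.73 on 28-cell A, B and C, and 0.71, 0.52 and 0.040 on 55-cell A, B and C. It was -2.1 and -2.06 on the 95-cell arrays, and -3.21, -2.85 and -3.53 on 190-cell A, B and C. The set's median thus stood higher at 28 than at 4 cells and was below its 4-cell value on every 190-cell array. Gene by gene, 292 of the 396 had a 28-cell mean above both their 4-cell and 190-cell means, and the rest did not. A low 190-cell level is favoured by how these genes were chosen. Only the level at 28 against 4 cells uses neither of the stages that chose them. The share with such a course among all tested genes was not counted. The 193 falling genes detected on neither 4-cell array had medians of -5.55 and -5.43 there, low by how the set was chosen, between -0.75 and -0.65 on the 28-cell arrays, and between -4.28 and -3.83 on the 190-cell arrays.

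Rising genes followed a different course. The 305 detected on both 4-cell arrays had median levels of -2.78 and -2.86 at 4 cells, between -2.88 and -2.77 at 28 cells and between -2.75 and -2.45 at 55 cells. Their medians were -0.59 and -0.61 at 95 cells and 0.44, 0.61 and 0.94 on 190-cell A, B and C. Their medians through the first 3 stages spanned less than the step from 55 to 95 cells. The 182 detected on neither 4-cell array had medians between -3.70 and -3.27 at 55 cells and between -0.16 and 0.057 at 190 cells. Their values at 4 cells, -5.56 and -5.40, were not above background, and a lower level there is fixed by how the set was chosen.

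At 95 cells, 40 min after the 55-cell stage, a median of 60.9% of the log2 rise (interquartile range 42.7% to 75.9%) and 69.5% of the log2 fall (52.4% to 83.0%) had been reached. The 95-cell mean lay between those of 55 and 190 cells for 494 of 527 rising genes and 578 of 633 falling genes. For 48 falling and 10 rising genes it lay beyond the 190-cell mean. The timing of rises and falls was not tested against each other, and the genes were picked by the means at both ends.

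**Figure D3:**
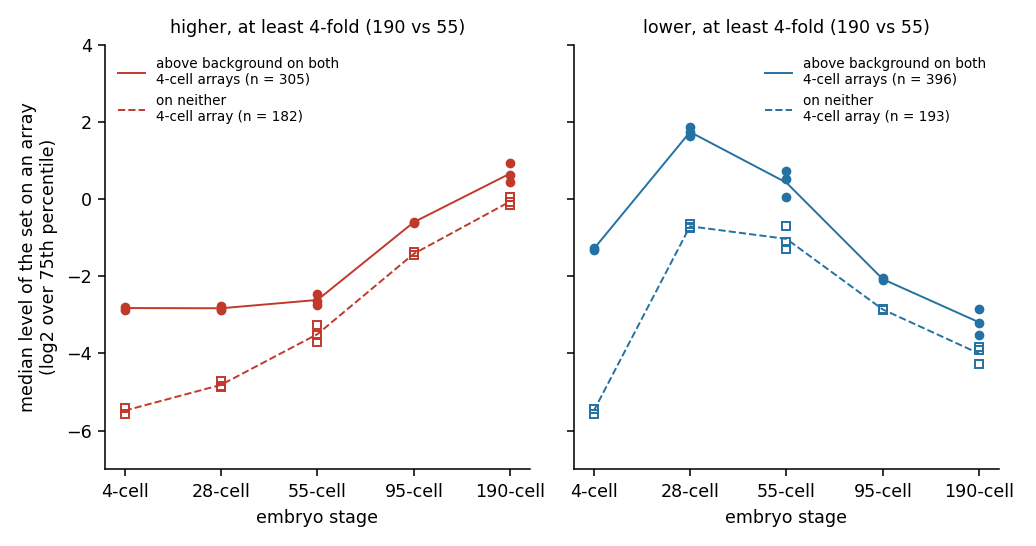
Each point is the median level (log2 intensity minus the array's 75th percentile) of a set of genes on 1 array, with stages on the x axis and lines through the mean of the points of a stage. Rising genes (red, left) and falling genes (blue, right) changed by at least 4-fold between 55 and 190 cells and are split by detection on the 4-cell arrays. Both falling sets have their highest point at 28 cells.

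The largest rises among the 1667 genes that were called, did not overlap and had a probe above background on all 6 arrays were those of WBGene00026060 and WBGene00029570, ranked by the mean over kept probes. These means include probes not above background at the dimmer stage, so the order among the largest changes is uncertain, for falls as for rises. WBGene00026060 stood at -5.63, -5.90 and -5.61 on 55-cell A, B and C and at 2.85, 2.77 and 3.06 on 190-cell A, B and C. The groups were 8.38 log2 units apart at their nearest arrays. The mean was -5.71 ± 0.16 (SD, n = 3) at 55 cells and 2.89 ± 0.15 (n = 3) at 190 cells, a difference of 8.61 (SE 0.225, limma adjusted p = 4.33e-10). The gene's A probe was above background on none of the 55-cell arrays, so the size is better read from its B probe, which was above background on all 6 and rose 204-fold. This gene was near the bottom of the scale from the start, at -4.44 ± 0.13 (n = 2) at 4 cells and -5.23 ± 0.15 (n = 3) at 28 cells. At 95 cells it stood at -1.79 ± 0.26 (n = 2), so that its rise was split over both later intervals. The change was 3.93 from 55 to 95 cells (limma adjusted p = 1.88e-06) and 4.68 from 95 to 190 cells (limma adjusted p = 1.37e-06). These comparisons share the 95-cell arrays with each other and the end stages with the main one.

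WBGene00029570 stood at -6.17, -4.77 and -4.98 on 55-cell A, B and C and at 2.95, 2.61 and 3.84 on 190-cell A, B and C. 55-cell A was the lowest and 190-cell C the highest, and the stages did not overlap. The gene's mean rose from -5.31 ± 0.75 (SD, n = 3) to 3.13 ± 0.64 (n = 3), by 8.44 (SE 0.489, limma adjusted p = 8.25e-08). Of its 5 probes, D was above background on all 55-cell arrays and rose 157-fold, and the others were above background on 1 or 2 of the 3. None of the 5 was above background on either 4-cell array. In contrast to WBGene00026060, most of its rise came early: 6.76 from 55 to 95 cells (limma adjusted p = 5.81e-06) and 1.68 from 95 to 190 cells, which did not pass (limma adjusted p = 0.0960).

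WBGene00023875 and WBGene00033542 had the largest falls of the 1968 genes that met the same conditions. WBGene00023875 stood at 5.07, 5.58 and 5.67 on 55-cell A, B and C and at -3.15, -2.66 and -3.53 on 190-cell A, B and C. Every 55-cell array lay over 5 units above the 75th percentile and every 190-cell array below it. The mean fell from 5.44 ± 0.32 (SD, n = 3) to -3.11 ± 0.43 (n = 3), a change of -8.55 (SE 0.361, limma adjusted p = 8.00e-09). Probes A, C and D, unsaturated and above background on all 6 arrays, fell 609-, 742- and 628-fold. Probe B was saturated on all 3 of the 55-cell arrays and fell at least 40.04-fold, which pulls the mean of the gene towards 0. The transcript was present at 4 cells, at 1.80 ± 0.24 (n = 2), and rose by 3.44 to the 28-cell stage (limma adjusted p = 9.80e-06). It stayed high from 28 to 55 cells, where the change was 0.20 (limma adjusted p = 0.743), and had come down to 0.46 ± 0.10 (n = 2) at 95 cells.

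WBGene00033542 stood at 3.08, 3.11 and 1.95 on 55-cell A, B and C and at -5.46, -4.87 and -6.48 on 190-cell A, B and C. Replicate C was the lowest array of both stages, and the stages did not overlap. The mean fell from 2.71 ± 0.66 (SD, n = 3) to -5.60 ± 0.81 (n = 3), a difference of -8.31 (SE 0.470, limma adjusted p = 6.36e-08). Probe A of this gene was not above background at 190 cells. Probe B was above background on all 6 arrays and fell 183-fold. The mean over both probes, of which A was above background on 1 of the 2 4-cell arrays, had risen by 6.61 from 4 to 28 cells (limma adjusted p = 3.78e-07) and was already lower at 55 than at 28 cells, by a change of -1.93 (limma adjusted p = 0.00864). From 55 to 95 cells this mean changed by -6.68 (limma adjusted p = 5.12e-06). With normexp background correction, without 28-cell C, the changes of these 4 genes from 55 to 190 cells were 5.50, 5.73, -6.93 and -5.22 in the order given here.

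**Figure D4:**
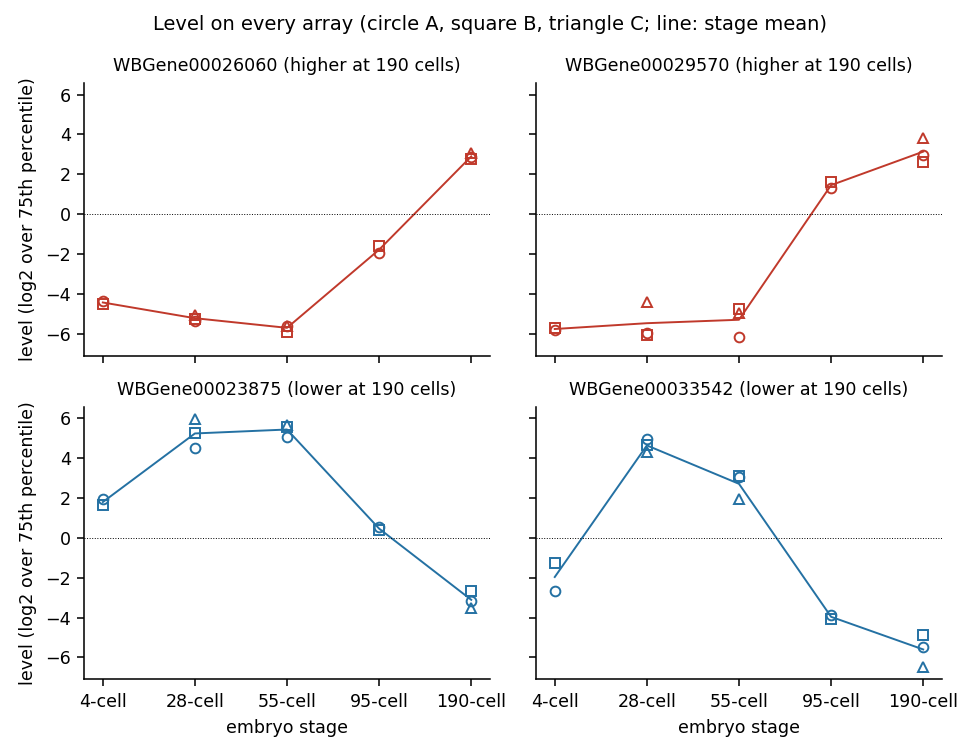
The level of 4 genes (log2 intensity minus the array's 75th percentile, y axis) is plotted for every array at each stage (x axis), with circles for replicate A, squares for B, triangles for C and a line through the stage means. The rising genes (red) lie below -4 through 55 cells, and the falling genes (blue) have their highest means at 28 or 55 cells.

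Changes were also compared between the scan dates. A fit on the arrays of the first date alone, with 2 arrays of each stage, called 4475 genes (33.3%), 2183 higher (16.2%) and 2292 lower (17%). The arrays of the second date, 1 of each stage, took no part in that fit. On them, 2093 of the 2183 genes higher in the first date (95.9%) were also higher at 190 cells, against 40.4% of all tested genes. Of the 2292 lower genes, 2243 (97.9%) were also lower, against 59.6% of all. The median log2 change of the higher genes was 1.87 in the first and 1.53 in the second date, and that of the lower genes -1.92 in both. A test of the difference between dates called 1 of 13443 genes (903 at an unadjusted p under 0.05), with 1 array per stage on the second date. With scan date as a block on the 12 arrays with a known date, 5794 genes were called.

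**Figure D5:**
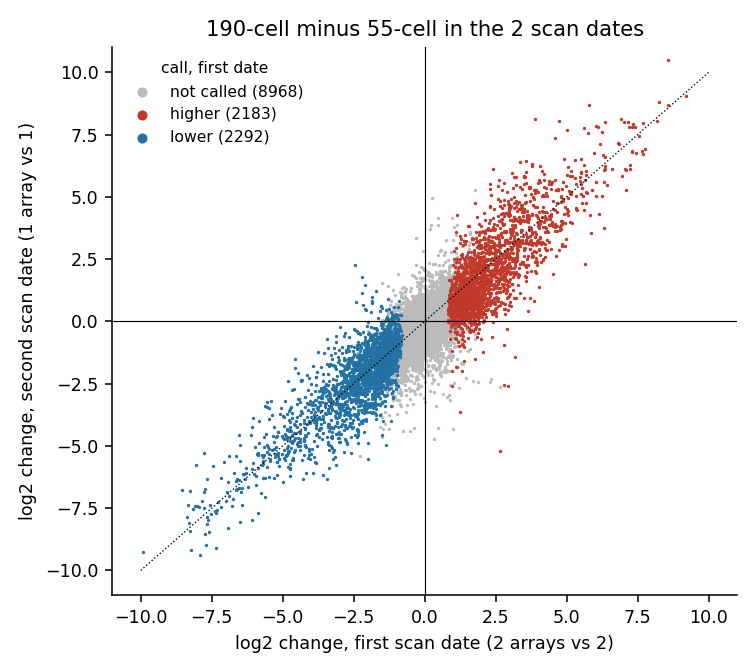
Each point is a tested gene, with its log2 change (190-cell minus 55-cell) between 2 and 2 arrays of the first scan date on the x axis and between 1 and 1 array of the second date on the y axis. Colours give the call in the first date alone, and the dotted line marks equal changes; 95.9% of red and 97.9% of blue points have the same sign on both axes.

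Replicate C also differed from A and B in the position of its arrays along the change. Of the 1692 rising genes above background on all 6 arrays, 49.2% had their highest 55-cell level on 55-cell C, nearest to the 190-cell level. Of the 1996 such falling genes, 50.1% had their lowest 55-cell level on 55-cell C. Among the same falling genes 54.6% were lowest on 190-cell C, whereas the rising genes were highest on 190-cell B in 47.9% and on 190-cell C in 39.5%. In 3 of these 4 rankings a C array lay furthest in the direction of development, and the C arrays also differed in scan date and sensitivity. Whether scan date, sensitivity or the age of the embryos set this order was not tested.

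Changes were also compared between probes of the same gene. In 8540 genes both the A and the B probe were kept. Their changes correlated with r = 0.907 across genes, and with r = 0.934 for 6476 genes with both probes above background on all 6 arrays. The probes share their arrays, and genes are not independent replicates. Both probes were called for 2576 genes, in the same direction for 2567 and in opposite directions for 9. Another 1269 genes were called by 1 of the probes and not by the other, 822 of them with both probes above background on all 6 arrays.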

How the data were processed

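RNA of staged embryos was amplified in 2 rounds, labelled with Cy3 and hybridised to 1-colour 44k arrays, per the labels' protocols. The deposited intensity values are the processed signals of Agilent Feature Extraction 9.5.3.1, per the file headers, with background and a spatial trend subtracted and no scaling between arrays. Amplification can distort ratios between transcripts. The deposited series table equalled the scanner output within a relative tolerance of 1e-06 for 12 of 13 arrays. The scanner file given for 28-cell C was a copy of that of 190-cell C, so series-table values were used throughout and its flags were not. Flags for detection, saturation and outlying spots came from the other deposited files. 0 columns of other series were present.

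Of 42034 probes, 207 with an outlier flag were left out. A probe was kept if every array of some stage had it well above background (24781 probes), and probes were averaged per gene (13443 genes, 4649 with 1 probe). Stage means were compared with limma 3.58.1 in R 4.3.3 (lmFit, eBayes, two-sided, Benjamini-Hochberg over all genes, threshold 0.05) on all 13 arrays. All p-values use the spread between separate pools of embryos, biological replicates per the labels. The fit was tested on simulated data. Bounds set the brighter stage's mean against the dimmer stage's, with each array's signal raised to its detection limit where it lay lower. Genes were named by this rule: the 2 largest rises and falls among called, non-overlapping genes with a probe above background on all 6 arrays. The fixed gene lists could not be matched to gene numbers. The main fit did not pair samples by replicate letter. Deviations from the stage mean correlated between 55-cell and 190-cell arrays with r = -0.021 for A, 0.091 for B and 0.35 for C. The C arrays shared a scan date. Across letters, r ranged from -0.35 (55-cell C with 190-cell B) to 0.27 (55-cell A with 190-cell B). Deviations within a stage sum to 0, so these values are not independent. The comparison, lists and tests were chosen with earlier results of these data known.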

Additional observations from a re-analysis of the deposited data

How the results depend on the processing

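Each count was recomputed under 17 alternatives and without each of the 6 arrays in turn, where the setting allowed it. Spike-in scaling and normexp correction also left out 28-cell C, whose scanner data were not usable; leaving it out alone gave 5075 called genes. The count of 4938 called genes moved by over 1.5 times with spike-in scaling, to 2174 (1021 higher and 1153 lower, also 2174 relative to the median), and with only probes detected on all arrays, to 2470 (1141 higher and 1329 lower, 2511 relative to the median), where fewer genes were tested. Without 1 array it ranged from 4065 to 4688. The replicate block gave 5304 genes. At 55 and 190 cells its letters partly follow the scan date, as both C arrays were scanned on the second date. Changes of at least 4-fold numbered 643 with normexp, 985 with a common floor under the signal and 589 with probes detected on all arrays. Genes that rose from background numbered 93, 47 and 0 and genes that fell to it 71, 42 and 0 under these same settings, the last of which leaves no such gene by construction. With the first scan date alone they numbered 408 and 410. Without 1 array they ranged from 159 to 376 and from 156 to 395. The share of called genes that were higher, 45.5%, ranged from 41.8% to 51.4%.

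The counts by early change, and the alternatives for genes that rose from or fell to background, were chosen after the data were examined. Genes that fell after an early rise numbered 807 with spike-ins, 985 with normexp and 517 with probes detected on all arrays, and genes that fell after an early fall 67 with spike-ins and 307 with no filter on dim probes. Rising genes with an early rise numbered 909 with scaling on detected probes, 120 with spike-ins, 236 with normexp, 294 with the floor, 235 with no filter, 186 with only the probes that all arrays detected, and 291 without contradictory tags. Rising genes with an early fall numbered 409 with scaling on detected probes, 54 with spike-ins, 1362 with arrays centred on the median gene, 499 with no filter and 496 without the contradictory tags. The causes were not tested. The 4 named genes were called under every alternative that could be fitted; WBGene00026060 and WBGene00029570 have no probe detected on all arrays. Saturation limits the brightest falls, and signals near background limit the folds of dim genes.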
